A study of Mus musculus with 6 samples.

Results

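The genes described are those of the mouse receptors for IgG, taken as a list of 6 symbols (Fcgr1, Fcgr2b, Fcgr3, Fcgr4, Fcer1g and Fcgrt). The list was set by gene family, not by a rule on values, but was chosen with earlier results of these data known. Its genes were matched by gene identifier in the RNA-seq counts of type 1 conventional dendritic cells (cDC1). All 6 were found among 54532 gene identifiers, and all 6 had enough reads to be tested. Bone marrow was grown with 80 ng/mL FLT3L, a cytokine that drives dendritic cell development, and cDC1 were sorted on day 8 as CD24+ CD11c+ cells lacking B220, CD115 and CD172a. The question taken up here is whether the activating and the inhibitory receptors differ between control cells and cells whose genes of the transcription factors c-Jun and JunB were targeted by Cre.

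The 3 control libraries, titled WT, are of c-Jun/JunB fl/fl cells and carry the floxed alleles without Cre. The 3 others, titled KO and labelled c-Jun/JunB fl/fl Itgax-Cre, carry the floxed alleles with Cre under the promoter of Itgax, the CD11c gene, which deletes them in cells that express CD11c. The libraries are called fl/fl 1 to 3 and Δ/Δ 1 to 3, the latter for the deleted alleles c-Jun/JunB Δ/Δ. Mice of the study were 8 to 16 weeks old on a mixed background of 129Sv × C57BL/6, and neither the age behind each library nor the chromosome 1 haplotype at the Fc receptor genes is given in the sources used here. Reads on genes numbered 25860931, 26788296 and 23666519 in fl/fl 1, 2 and 3, and 24429016, 21693217 and 22874838 in Δ/Δ 1, 2 and 3. Values are CPM, edgeR's read counts scaled to a common library total after TMM factors, so that 1 read is 0.0371 to 0.0467 CPM. Groups are given as mean ± SD (n = 3) and log2 fold changes, Δ/Δ over fl/fl, with ± SE.

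Receptors for the Fc part of IgG let a cell take up antigen that antibody has bound, and dendritic cells are known to present such antigen to T cells. Fcgr1, Fcgr3 and Fcgr4 encode activating receptors that signal through the ITAM of the common gamma chain encoded by Fcer1g, while Fcgr2b encodes the inhibitory receptor, whose ITIM recruits phosphatases. Fcgrt encodes the heavy chain of FcRn, which pairs with beta-2 microglobulin and recycles or routes IgG inside the cell.

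The targeted genes were looked at first. Jun had 70.9, 52.5 and 63.1 CPM in fl/fl 1 to 3 and 48.2, 44.3 and 60.5 CPM in Δ/Δ 1 to 3, so the genotypes overlapped. Junb had 315, 274 and 413 CPM against 110.4, 171 and 212 CPM, with every Δ/Δ library below every fl/fl library. Their log2 fold changes were −0.29 ± 0.15 and −1.02 ± 0.25 (edgeR quasi-likelihood test with Benjamini-Hochberg adjustment, adjusted p = 0.345 and 0.0729). Junb was called by DESeq2 (0.000119, or 0.0203 with no filter) and by edgeR with no filter (0.0161) or a replicate block (0.037), and without Δ/Δ 1 it passed in adjusted p (0.0359) at a log2 fold change of −0.80. All alternatives spanned 0.000119 to 0.228 for Junb and 0.197 to 0.707 for Jun. Reads of both genes were thus present in all Δ/Δ libraries, and the exons between the loxP sites of either gene are not named in the sources used here. By quantitative RT-PCR the study reports deletion of both genes in cDC1 and cDC2 of spleen and in cDC1 of lymph nodes. Those cells are not the ones of these libraries.

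Among the genes of the sort, Itgax fell from 114, 128 and 153 CPM to 44.8, 55.1 and 69.0 CPM (log2 fold change −1.22 ± 0.17, edgeR adjusted p = 0.0147), the promoter of the same gene being the one that drives Cre. Its adjusted p was 0.0526, 0.0781 or 0.0505 when fl/fl 1, 2 or 3 was left out, and all alternatives together spanned 5e-11 to 0.0781. Cd24a had 487, 489 and 502 CPM against 366, 402 and 429 CPM (edgeR adjusted p = 0.0605), and Sirpa, the gene of CD172a, 44.7, 45.2 and 60.5 CPM against 42.4, 46.8 and 40.9 CPM. Csf1r, the gene of CD115, lay between 3.59 and 6.81 CPM in all 6 libraries, and Ptprc, of which B220 is a form, had 926, 1012 and 979 CPM in fl/fl against 1105, 1097 and 1259.9 CPM in Δ/Δ, higher in every Δ/Δ library (log2 fold change 0.25 ± 0.07, edgeR adjusted p = 0.122).

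Markers of cDC1 were present in every library, in both genotypes. Irf8, a transcription factor of the lineage, had 2653 to 2879 CPM and Clec9a, a receptor for dead cells, 203 to 273 CPM over the 6 libraries. The chemokine receptor gene Xcr1 fell from 475, 421 and 443 CPM to 178, 201 and 122 CPM (log2 fold change −1.42 ± 0.17, edgeR adjusted p = 0.00812). Leaving out fl/fl 1 gave an adjusted p of 0.0569 and leaving out fl/fl 2 one of 0.0501, and all alternatives together spanned 4.32e-16 to 0.0569. Of 14 listed cDC1 markers, 5 fell at an adjusted p under 0.05 and none rose by edgeR. Over all 12894 tested genes 238 fell and 262 rose under that limit, 3.88% in either direction. The 5 markers were Xcr1, Tlr3, Snx22, Rab7b and Ifi205, all of which the study had named as reduced in these same libraries. Their count is therefore not independent of that report. Cadm1 was higher in every Δ/Δ library (log2 fold change 0.32 ± 0.07, edgeR adjusted p = 0.0615). Itgae had 151, 206 and 258 CPM in fl/fl against 201, 892 and 229 CPM in Δ/Δ libraries. The 14 markers summed to 12605, 12614 and 12307 CPM in fl/fl against 9849, 11726 and 10330.3 CPM in Δ/Δ libraries, with Wdfy4 the most abundant. Without Δ/Δ 3, 2 of them were called. In bulk RNA, fewer cells of a type and less RNA per cell cannot be told apart.

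Of the 6 Fc receptor genes, Fcer1g rose in Δ/Δ cDC1, by 1.44-fold, and was the only one under an adjusted p of 0.05 by edgeR. Fcgr3 had a 2.63-fold higher fitted level, but on few reads and with 1 Δ/Δ library near the fl/fl level, and Fcgr4 a 0.547-fold level on fewer reads still. Fcgrt lay higher in all 3 Δ/Δ libraries by 1.28-fold, and Fcgr2b and Fcgr1 overlapped between the genotypes.

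To be called, a gene had to pass 0.05 in adjusted p and change by at least 1 on the log2 scale, up or down, and 0 of the 6 were called by edgeR's quasi-likelihood test, against 240 of all 12894 tested genes (1.86%). At an adjusted p under 0.05 alone 1 of the 6 passed, in the higher direction, where 500 of all genes did (3.88%, with 2.03% higher). An unadjusted p under 0.05 was reached by 4 of the 6 and by 19.4% of all genes. DESeq2 called 1 of the 6, Fcgr3 (2.99% of all genes), and limma-voom 0 (1.90%). In 4 of the 6 every library of one genotype lay above every library of the other, 3 higher and 1 lower in Δ/Δ, while this held for 26.0% of all tested genes, 13.7% higher and 12.3% lower. These p-values measure the spread between 6 libraries, part of which may be technical. The number of all genes called ran from 74 to 579 when 1 library was left out. It was 74, 80 and 154 without fl/fl 1, 2 or 3, and 579, 370 and 192 without Δ/Δ 1, 2 or 3.

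**Figure D1:**
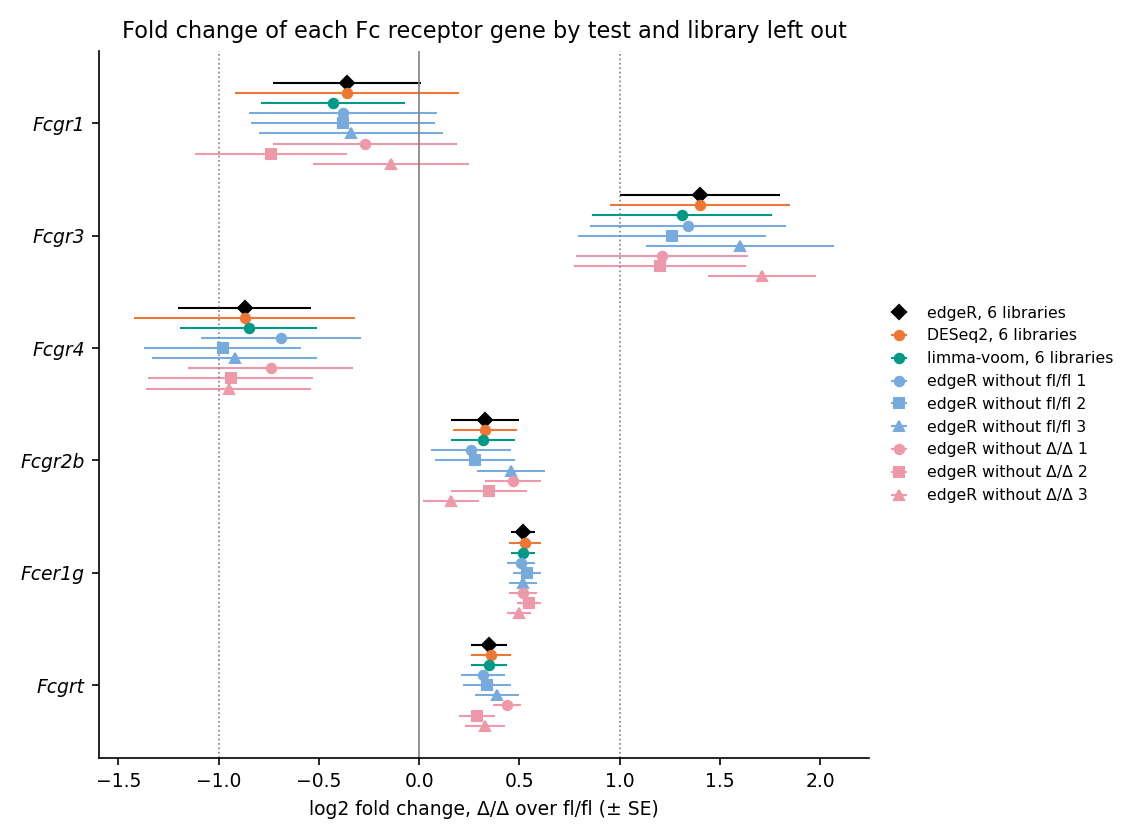
Log2 fold change of each Fc receptor gene (Δ/Δ over fl/fl, horizontal axis) by edgeR, DESeq2 and limma-voom on 6 libraries and by edgeR with each library left out, with bars for the SE and dotted lines at a change of 1 in size. Fcer1g lies between 0.50 and 0.55 in all fits shown, while Fcgr3 runs from 1.2 to 1.71.

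Levels of different genes were compared as CPM per kb of merged exons. In fl/fl libraries Fcgrt stood highest with 135 ± 7.01, followed by Fcer1g with 77.3 ± 2.05 and Fcgr2b with 33.1 ± 5.13 CPM per kb, each above the next in all 3 libraries. Far below came Fcgr3 with 0.922 ± 0.223, Fcgr4 with 0.874 ± 0.177 and Fcgr1 with 0.395 ± 0.0131 CPM per kb, where Fcgr3 and Fcgr4 did not differ beyond their spread. The Δ/Δ libraries had the same order, with 172 ± 19.0 for Fcgrt, 111 ± 3.94 for Fcer1g, 41.6 ± 8.71 for Fcgr2b, 2.42 ± 1.04 for Fcgr3, 0.478 ± 0.0782 for Fcgr4 and 0.307 ± 0.128 CPM per kb for Fcgr1. There the lowest pair, Fcgr4 and Fcgr1, overlapped. The inhibitory receptor gene was thus 35.9 times the most abundant activating receptor gene per kb in fl/fl and 17.2 times in Δ/Δ means. With no division by length Fcgr2b lay above Fcer1g, and in Δ/Δ means Fcgr1 above Fcgr4, and Fcgr2b was 119.8 and 57.3 times Fcgr3.

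**Figure D2:**
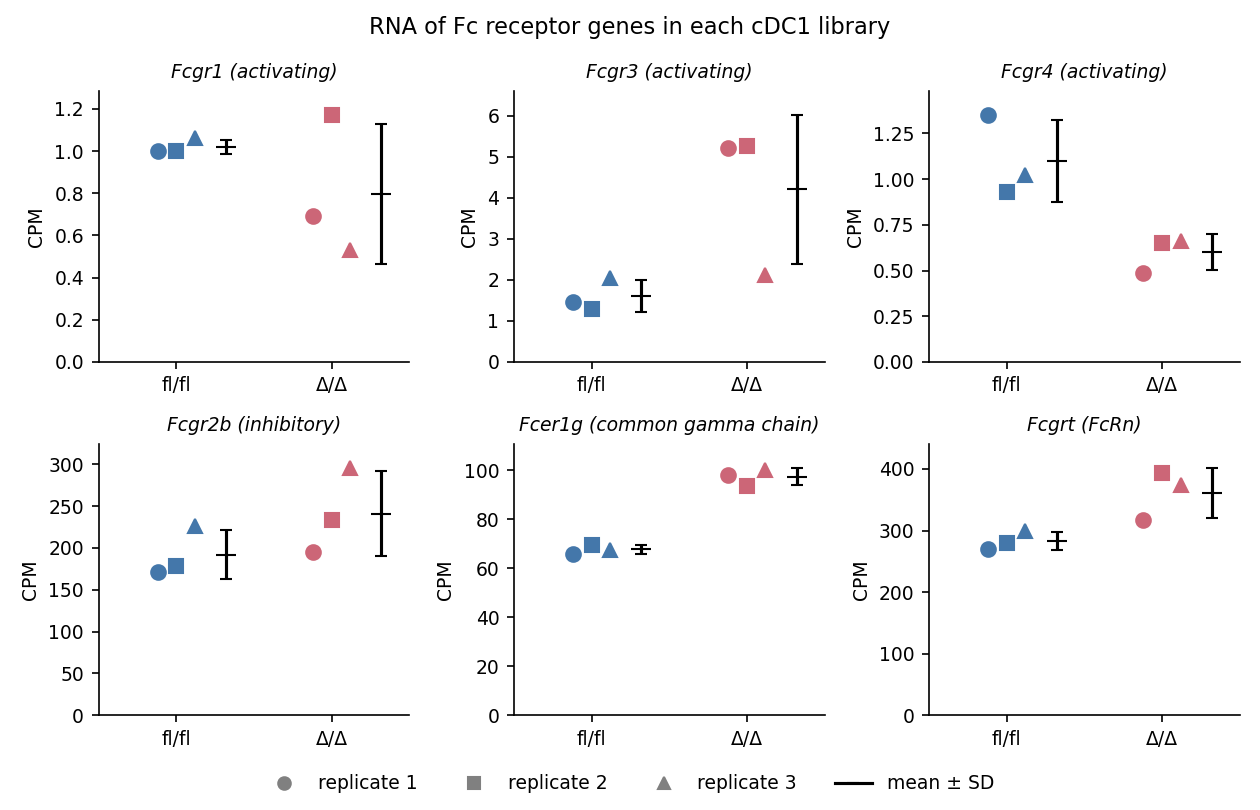
CPM of the 6 Fc receptor genes in each library (points, with the shape giving the replicate number) beside the mean ± SD of each genotype, each gene on its own axis from 0. Fcer1g separates the genotypes with little spread, and Fcgr3 has Δ/Δ 3 beside the fl/fl libraries.

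Of the activating receptor genes, Fcgr3, which encodes the low-affinity receptor CD16, lies at chr1:171051174-171064935 of GRCm38 on the minus strand (ENSMUSG00000059498.13). It had 38, 35 and 48 reads in fl/fl 1 to 3 and 129, 113 and 48 reads in Δ/Δ 1 to 3, or 1.47, 1.30 and 2.04 CPM against 5.23, 5.27 and 2.11 CPM. Δ/Δ 1 and Δ/Δ 2 stood well above all others, while Δ/Δ 3 lay just over fl/fl 3 on the same number of reads. The fl/fl mean was 1.60 ± 0.387 CPM and the Δ/Δ mean 4.21 ± 1.81 CPM, a log2 fold change of 1.4 ± 0.40 (edgeR, Benjamini-Hochberg adjusted p = 0.112), which was not called. DESeq2's Wald test gave an adjusted p of 0.0256 with the same fold change. Without Δ/Δ 3, edgeR called it at a log2 fold change of 1.71 ± 0.27 (adjusted p = 0.0348), and over all alternatives the adjusted p ran from 0.019 to 0.348.

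Fcgr4, the receptor for IgG2a and IgG2b, lies at chr1:171018920-171029761 on the plus strand (ENSMUSG00000059089.4). It had 35, 25 and 24 reads in fl/fl and 12, 14 and 15 reads in Δ/Δ libraries, or 1.35, 0.927 and 1.02 CPM against 0.487, 0.653 and 0.661 CPM. All 3 Δ/Δ libraries lay below all 3 fl/fl libraries, the opposite side from Fcgr3. The log2 fold change was −0.87 ± 0.33 (edgeR adjusted p = 0.21), and DESeq2 gave the same fold change with an adjusted p of 0.435, with 0.21 to 0.555 over all settings.

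Fcgr1, the high-affinity receptor CD64, is the one IgG receptor gene of the list on chromosome 3, at chr3:96282909-96293969 on the minus strand (ENSMUSG00000015947.10). It had 26, 27 and 25 reads in fl/fl and 17, 25 and 12 reads in Δ/Δ libraries, or 1.00, 1.00 and 1.06 CPM against 0.690, 1.17 and 0.529 CPM. Δ/Δ 2 was above and the other Δ/Δ libraries were below the narrow fl/fl range. The log2 fold change was −0.36 ± 0.37 (edgeR adjusted p = 0.632), with −0.74 when Δ/Δ 2 and −0.14 when Δ/Δ 3 was left out (adjusted p = 0.336 and 0.909, the span of all alternatives). The change of Fcer1g, 0.52, is less than 2 such SE.

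Fcgr3 and Fcgr2b are near copies in their extracellular part, which matters for counts of uniquely mapped reads. Their coding sequences were identical at 86.7% of 782 aligned bases, while the other pairs among Fcgr1, Fcgr2b, Fcgr3 and Fcgr4 had 64.1 to 68.6%. Of all stretches of 75 bases, the read length, in the GENCODE transcripts of Fcgr3, 94 of 1733 (5.42%) also occurred in Fcgr2b and in no other gene. For Fcgr2b, 156 of 5768 (2.7%) occurred elsewhere, 94 of them in Fcgr3, and for the other 4 genes none did. As Fcgr2b had 14558 reads in fl/fl libraries against 121 of Fcgr3, the stretch where they are most alike is printed for both, 150 bases of coding sequence that span an intron, with capitals for the 2 bases that differ. It lies at chr1:170966664-170968092 in Fcgr2b and at chr1:171054157-171057803 in Fcgr3, both read on the minus strand of GRCm38. Whether misplaced reads of Fcgr2b add to Fcgr3 was not tested, and in Δ/Δ 3 the reads of Fcgr2b were the most numerous and those of Fcgr3 the fewest of the 3 Δ/Δ libraries.
Fcgr2b: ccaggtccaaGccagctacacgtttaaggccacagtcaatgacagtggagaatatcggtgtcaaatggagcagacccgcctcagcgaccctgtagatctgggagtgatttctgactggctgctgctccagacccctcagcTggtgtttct
Fcgr3: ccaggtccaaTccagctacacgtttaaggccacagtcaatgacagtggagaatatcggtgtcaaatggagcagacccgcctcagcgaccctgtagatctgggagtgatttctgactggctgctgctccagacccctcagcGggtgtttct

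Fcgr2b, the inhibitory receptor CD32B, lies at chr1:170958617-170976547 on the minus strand (ENSMUSG00000026656.15). It had 4429, 4811 and 5318 reads in fl/fl and 4811, 4995 and 6698 reads in Δ/Δ libraries, or 171, 178 and 226 CPM against 195, 233 and 295 CPM. Δ/Δ 3 was highest, but Δ/Δ 1 lay below fl/fl 3, so the genotypes overlapped. The fl/fl mean was 192 ± 29.7 CPM and the Δ/Δ mean 241 ± 50.4 CPM, a log2 fold change of 0.33 ± 0.17 (edgeR adjusted p = 0.333). It was 0.16 without Δ/Δ 3 and 0.47 without Δ/Δ 1 (adjusted p = 0.661 and 0.0908), and over all alternatives the adjusted p ran from 0.0697, with a replicate block, to 0.667. The ITIM, the motif that makes the receptor inhibitory, is shown in its coding sequence. The codon of the ITIM tyrosine, codon 319 of 340, is in capitals in the stretch at chr1:170961062-170961097, read on the minus strand.
Fcgr2b ITIM: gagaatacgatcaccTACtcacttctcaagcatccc

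Fcer1g, the gamma chain on which the activating receptors rely for signal and for surface expression, lies at chr1:171229572-171234365 on the minus strand (ENSMUSG00000058715.11). It had 1710, 1874 and 1585 reads in fl/fl and 2415, 2002 and 2274 reads in Δ/Δ libraries, or 65.9, 69.5 and 67.2 CPM against 98.0, 93.4 and 100.2 CPM. The lowest Δ/Δ library lay well above the highest fl/fl library, with little spread in either genotype. The mean rose from 67.6 ± 1.79 to 97.2 ± 3.45 CPM, a log2 fold change of 0.52 ± 0.06, higher in 3 of 3 Δ/Δ libraries (edgeR, Benjamini-Hochberg adjusted p = 0.00556). Its change was below the size a call asks for, 1 on the log2 scale. The adjusted p stayed under 0.05 when any 1 library was left out and under all other alternatives (2.45e-09 to 0.0497). The activating signal of the complex comes from its ITAM, whose tyrosine codons, 65 and 76 of 86, are in capitals in the stretch at chr1:171229880-171230081, which spans an intron and is read on the minus strand. No ITAM match was found in the coding sequences of Fcgr1, Fcgr2b, Fcgr3 and Fcgr4.
Fcer1g ITAM: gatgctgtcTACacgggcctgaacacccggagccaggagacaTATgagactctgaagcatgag

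Promoter windows, 250 bases before to 50 after the start of transcription, were taken from RefSeq on GRCm38.p6 for all 6 genes, 7 windows in all. The windows of Fcgr3, at chr1:171059354-171059653 and chr1:171059345-171059644, overlap almost fully and are not separate promoters. The motif TGANTCA, the AP-1 site that c-Jun and JunB dimers bind, was in 0 of the 7 windows on either strand and in 7.81% of all 32851 promoter windows, and TGACGTCA in 0 of 7 and 1.79% of all. No match says only that these letters are not in these windows. The window of Fcer1g, the gene that rose, is shown with capitals for GGAA and its reverse complement TTCC, the core of sites bound by ETS factors such as PU.1. It lies at chr1:171234300-171234599 on the minus strand and holds 7 such cores. As many were in 8.02% of all promoter windows and at least 1 in 96.0%, and a match is a description, not a site.
Fcer1g promoter: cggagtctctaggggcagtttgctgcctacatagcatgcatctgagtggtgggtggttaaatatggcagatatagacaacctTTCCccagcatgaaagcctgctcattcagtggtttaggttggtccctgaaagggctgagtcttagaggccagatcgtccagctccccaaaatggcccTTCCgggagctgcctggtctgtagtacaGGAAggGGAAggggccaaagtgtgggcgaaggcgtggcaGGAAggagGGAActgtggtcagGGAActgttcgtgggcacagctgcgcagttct

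Fcgrt, the FcRn heavy chain gene, is at chr7:45092990-45103851 on the minus strand (ENSMUSG00000003420.8). It had 6998, 7544 and 7045 reads in fl/fl and 7804, 8425 and 8498 reads in Δ/Δ libraries, or 269.9, 279.7 and 299 CPM against 317, 393 and 374 CPM. Every Δ/Δ library was above every fl/fl library, Δ/Δ 1 by a small margin. The fl/fl mean was 283 ± 14.7 CPM and the Δ/Δ mean 361 ± 39.9 CPM, with a log2 fold change of 0.35 ± 0.09 (edgeR adjusted p = 0.0835). Without Δ/Δ 1 the log2 fold change was 0.44 ± 0.07 (edgeR adjusted p = 0.011), and DESeq2 gave an adjusted p of 0.0107, with 0.0107 to 0.322 over all alternatives.

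B2m, which encodes the light chain that FcRn shares with MHC class I, had 1375, 1248 and 1227 CPM in fl/fl against 945, 1259 and 1019 CPM in Δ/Δ libraries. Δ/Δ 2 lay within the fl/fl range and the other Δ/Δ libraries below it (log2 fold change −0.26 ± 0.11, edgeR adjusted p = 0.265). Of the 8 genes listed for FcRn and its trafficking 7 were tested, and 0 passed by edgeR at an adjusted or an unadjusted p under 0.05, with 0 called by DESeq2 and limma-voom. Their median log2 fold change was −0.04, against 0.00 over all tested genes, and Vps35, a retromer subunit, had 0.03 ± 0.07.

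Activating and inhibitory receptors were set against each other in each library as the sum of CPM per kb of Fcgr1, Fcgr3 and Fcgr4 in percent of that of Fcgr2b. The sum was 7.82, 6.08 and 6.14% in fl/fl 1 to 3 and 10.9, 9.96 and 3.82% in Δ/Δ 1 to 3. Δ/Δ 1 and Δ/Δ 2 were the highest and Δ/Δ 3 the lowest of all 6 libraries, so the genotypes overlapped (6.68 ± 0.987% against 8.22 ± 3.84%). Fcgr3 alone was 2.86, 2.43 and 3.01% of Fcgr2b in fl/fl and 8.94, 7.55 and 2.39% in Δ/Δ libraries, again with Δ/Δ 3 lowest. The ratio of the genotype means of Fcgr3 over Fcgr2b was 2.27, and 1.8, 2.05 and 2.98 when Δ/Δ 1, 2 or 3 was left out.

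Among the single receptors, Fcgr4 over Fcgr2b was 3.64, 2.40 and 2.08% in fl/fl and 1.15, 1.29 and 1.03% in Δ/Δ libraries, the one activating receptor whose ratio kept the genotypes apart, with Δ/Δ lower. Fcgr1 over Fcgr2b was 1.31, 1.26 and 1.05% against 0.790, 1.12 and 0.401%, with overlap. Within the summed activating level, Fcgr3 made up 36.6, 39.9 and 49.0% in fl/fl 1 to 3 and 82.2, 75.8 and 62.5% in Δ/Δ 1 to 3. Fcer1g per kb was 26.7 to 58.8 times the activating sum and 197 to 333% of Fcgr2b. Its place against Fcgr2b rests on the lengths, 874 and 5790 bases of merged exons, as with no division by length it was 29.8 to 50.2% of Fcgr2b. No test was made on these ratios.

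**Figure D3:**
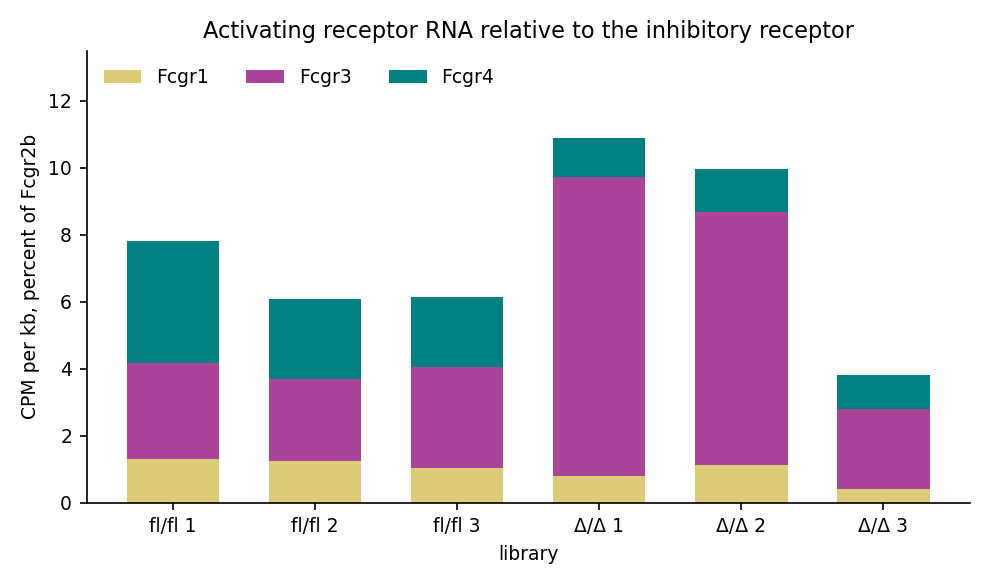
Level per kb of Fcgr1, Fcgr3 and Fcgr4 in percent of Fcgr2b (vertical axis), stacked in 1 bar for each library. The height of the bar, the sum, spans 3.82 to 10.9% in Δ/Δ and 6.08 to 7.82% in fl/fl libraries.

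Genes that act with the receptors were taken as lists, beside a median log2 fold change of 0.00 over all tested genes. The counts of each list, here and below, stand beside these shares of all tested genes. By edgeR 19.4% reached an unadjusted and 3.88% an adjusted p under 0.05, and 1.86% were called. DESeq2 called 2.99% and limma-voom 1.90%. The activating signal from ITAM to actin and MAP kinases had 35 of 35 genes tested with a median of 0.00 and 0 called by edgeR, 1 by DESeq2 and 0 by limma-voom. By edgeR 10 reached an unadjusted p under 0.05, and 1 passed an adjusted p under 0.05 as higher and 1 as lower. These were Bcl10, an adaptor of the CARD9 complex, with a log2 fold change of 0.32 ± 0.06 and Vav3, a guanine nucleotide exchange factor, with −0.38 ± 0.06 (edgeR adjusted p = 0.037 and 0.023), both named after their values were seen. Neither passed without fl/fl 1, 2 or 3 (Bcl10 0.182, 0.176 and 0.124, Vav3 0.0843, 0.105 and 0.0792 as adjusted p), without Δ/Δ 3 (0.055 and 0.0581) or with a replicate block (0.0776 and 0.0508), nor did Bcl10 without Δ/Δ 2 (0.0668) or with no filter (0.0625), and all alternatives spanned 0.00588 to 0.182 for Bcl10 and 0.000125 to 0.105 for Vav3. Syk, the kinase that binds the phosphorylated ITAM, had 216, 218 and 256 CPM in fl/fl against 219, 255 and 294 CPM in Δ/Δ libraries, with overlap. Cdc42 and Arpc2 were the most abundant, with log2 fold changes of −0.07 ± 0.06 and −0.12 ± 0.06 (edgeR adjusted p = 0.609 and 0.345). With no filter, without Δ/Δ 1 or without Δ/Δ 3, edgeR called 1 gene of this list in each fit.

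Among receptors and adaptors that share the gamma chain or carry an ITAM, 6 of 13 were tested, with a median of 0.27 and 0 called by edgeR, DESeq2 and limma-voom, while 1 reached an unadjusted p under 0.05. Tyrobp, the ITAM adaptor DAP12, had 353, 328 and 384 CPM in fl/fl against 400.5, 358 and 410.4 CPM in Δ/Δ, which overlapped (log2 fold change 0.13 ± 0.08, edgeR adjusted p = 0.414). Pira2, an activating receptor that pairs with the gamma chain, had 17.2, 18.1 and 22.2 CPM against 9.58, 10.9 and 22.1 CPM.

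The inhibitory signal had 13 of 13 genes tested, with a median of 0.05, 1 called higher and 1 called lower. Inppl1, which encodes the phosphatase SHIP2, had 9.10, 9.05 and 9.76 CPM in fl/fl against 32.3, 37.1 and 39.0 CPM in Δ/Δ libraries, a wide gap between the genotypes. It rose by 3.88-fold (log2 fold change 1.96 ± 0.11, edgeR adjusted p = 0.00041) and was called with any 1 library left out. Dok3, an adaptor that restrains immune receptor signals, fell from 83.1, 83.3 and 83.6 CPM to 38.9, 53.7 and 30.1 CPM (log2 fold change −1.03 ± 0.19, edgeR adjusted p = 0.0317). Dok3 was not called without fl/fl 1, 2 or 3 (adjusted p = 0.143, 0.141 and 0.107) nor, for the size of the change, without Δ/Δ 1 or Δ/Δ 3 (log2 fold change −0.99 and −0.85), and its adjusted p ran from 1.58e-06 to 0.143 over all alternatives.

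The phosphatases best known at the ITIM did not pass the test. Inpp5d, the gene of SHIP1, had 596, 593 and 605 CPM in fl/fl against 599, 599 and 645 CPM in Δ/Δ libraries, and Ptpn6, the gene of SHP-1, 608, 603 and 596 CPM against 616, 726 and 641 CPM. Their log2 fold changes were 0.04 ± 0.05 and 0.13 ± 0.07 (edgeR adjusted p = 0.739 and 0.35), with all Δ/Δ libraries above all fl/fl libraries for Ptpn6 and overlap for Inpp5d. Cbl, a ubiquitin ligase and the most abundant of the list, had 0.14 ± 0.08.

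Of 16 genes listed as other inhibitory receptors 15 were tested, with a median of 0.14 and 1 called in each direction by edgeR. The one called higher, Lilr4b (gp49A), is a near copy of an inhibitory receptor gene and is itself known to lack an ITIM. No other gene of the list was called higher by the filtered edgeR fit on genotype alone with all 6 libraries. Cd22, an inhibitory receptor with an ITIM, is named although the rules for naming genes do not cover it. It had 5.01, 7.86 and 10.2 CPM against 12.4, 28.0 and 43.9 CPM, higher in every Δ/Δ library (log2 fold change 1.87 ± 0.46, edgeR adjusted p = 0.0782). It was called by DESeq2 with or without the filter and by edgeR with no filter, with a replicate block or without Δ/Δ 1, and its adjusted p ran from 9.86e-05 to 0.282 over all alternatives. Lilr4b rose from 30.0, 33.7 and 32.2 CPM to 80.8, 64.1 and 52.6 CPM (log2 fold change 1.04 ± 0.15, edgeR adjusted p = 0.0159). The inhibitory copy Lilrb4a (gp49B) rose from 25.6, 28.8 and 24.9 CPM to 50.1, 46.3 and 45.8 CPM, short of the size of a call (log2 fold change 0.84 ± 0.09, edgeR adjusted p = 0.00454). Clec12a, a receptor for uric acid crystals, fell from 75.6, 81.8 and 85.2 CPM to 30.3, 36.1 and 48.1 CPM (log2 fold change −1.08 ± 0.16, edgeR adjusted p = 0.0166). Neither Lilr4b nor Clec12a was called without fl/fl 1, 2 or 3, where the adjusted p was 0.0995, 0.0836 and 0.0695 for Lilr4b and 0.0837, 0.0979 and 0.0677 for Clec12a, nor without Δ/Δ 1, where the log2 fold changes were 0.87 and −0.94. Over all alternatives the adjusted p ran from 9.82e-09 to 0.0995 for Lilr4b and from 3.64e-09 to 0.0979 for Clec12a. Pirb was the most abundant, with 227, 207 and 243 CPM in fl/fl against 189, 213 and 343 CPM in Δ/Δ libraries, which overlapped. Cd300a had 73.2, 90.9 and 118 CPM against 143, 129 and 223 CPM, higher in every Δ/Δ library (log2 fold change 0.81 ± 0.24, edgeR adjusted p = 0.129).

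Of 13 other Fc receptors and relatives, such as those for IgE and IgM and the FCRL family, 8 were tested, with a median of −0.27. By edgeR, DESeq2 and limma-voom 0 were called, 3 reached an unadjusted p under 0.05 by edgeR, and 1 was called without Δ/Δ 1. Trim21, which binds IgG inside the cell, fell from 45.4, 44.0 and 43.8 CPM to 35.5, 30.7 and 34.4 CPM (log2 fold change −0.40 ± 0.08, edgeR adjusted p = 0.0394). It did not pass when fl/fl 1, 2 or 3 or Δ/Δ 2 or 3 was left out (adjusted p = 0.18, 0.163, 0.127, 0.0561 and 0.0771) or with a replicate block (0.0611), and all alternatives spanned 0.00285 to 0.18. Of 13 complement and opsonin receptors 8 were tested, with a median of 0.03, and the 1 called was Itgax, with the limits on it named earlier. Itgb2, the chain with which it pairs, had 803, 804 and 815 CPM in fl/fl against 724, 715 and 791 CPM in Δ/Δ (edgeR adjusted p = 0.312), and Calr, which encodes calreticulin, a log2 fold change of 0.00 ± 0.06. Itgam, listed among the cDC2 markers as well, had 12.1, 17.2 and 21.3 CPM in fl/fl against 28.0, 27.0 and 42.8 CPM in Δ/Δ. It was thus higher in every Δ/Δ library (log2 fold change 0.95 ± 0.25, edgeR adjusted p = 0.0927). Without Δ/Δ 2, 2 genes of the complement and opsonin receptor list were called.

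**Figure D4:**
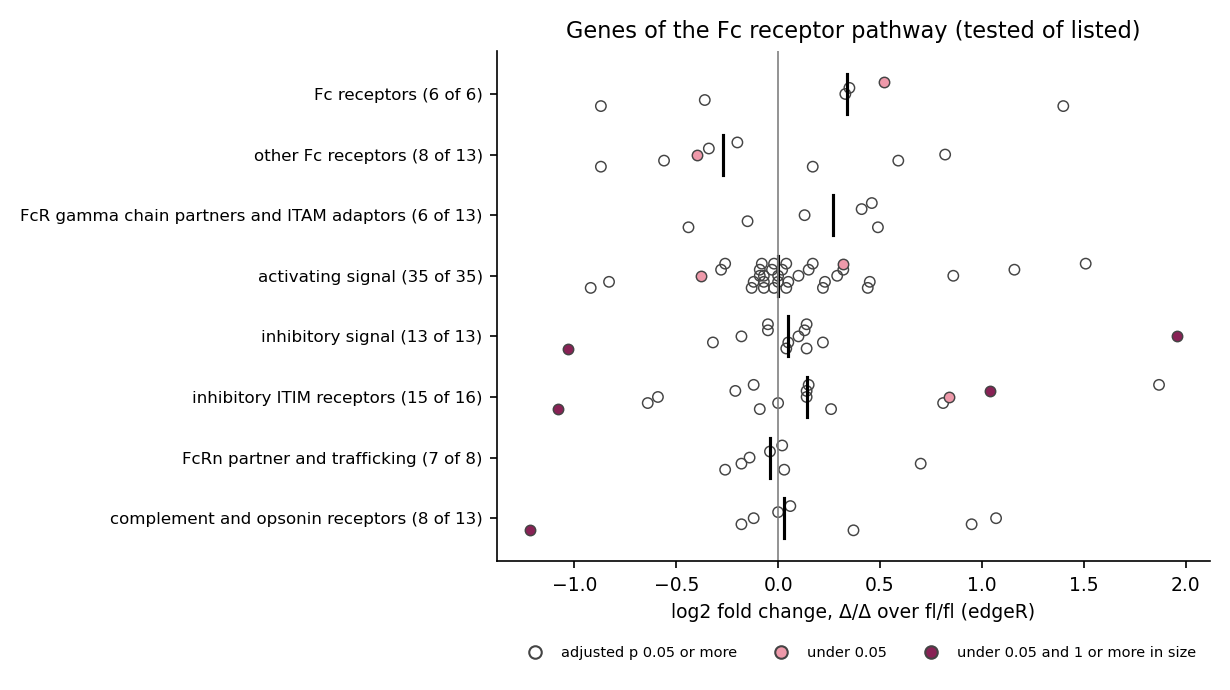
Log2 fold change (Δ/Δ over fl/fl, horizontal axis) of each tested gene of the Fc receptor pathway, by list, with a bar at the median of the list and filled points for an adjusted p under 0.05. The lists centre near 0, with medians from −0.27 to 0.34, and the darkest points mark 2 genes each among the inhibitory signal and the list of ITIM receptors, of which Lilr4b is known to lack the motif, and 1 among complement receptors.

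Monocytes, macrophages, cDC2, neutrophils, B cells, basophils and mast cells are known to express several of these receptors, so their markers are given beside the values of Fcer1g, Fcgr3 and Fcgrt. The 16 monocyte and macrophage markers summed to 2576, 2903 and 3014 CPM in fl/fl against 3911, 3567 and 4432 CPM in Δ/Δ libraries, without overlap. Lyz2 was the most abundant, and without it the sum was 816, 964 and 1093 CPM against 1533, 1672 and 1913 CPM, most of it from Ccr2. Without Lyz2 and Ccr2 the sum was 157, 151 and 184 CPM against 141, 169 and 188 CPM, with overlap. Of 10 tested, 0 were called by edgeR, DESeq2 and limma-voom, 4 reached an unadjusted p under 0.05 by edgeR and 2 rose at an adjusted p under 0.05, Ccr2 and Adgre1 (log2 fold change 0.96 ± 0.13 and 0.91 ± 0.17, edgeR adjusted p = 0.013 and 0.0317). Ccr2 did not pass without fl/fl 2 (adjusted p = 0.0813), nor Adgre1 without fl/fl 1, 2 or 3 or Δ/Δ 3 (0.143, 0.148, 0.0756 and 0.0774), with 5.42e-11 to 0.0813 and 1.2e-05 to 0.148 over all alternatives. Leaving out fl/fl 3, Δ/Δ 1 or Δ/Δ 2 gave 1, 2 or 1 called. The list's median was 0.30. Besides Ccr2 and Adgre1, Cd14, Cx3cr1, Csf1r and Lyz2 had log2 fold changes above 0 (2.33 ± 1.06, 0.61 ± 0.46, 0.32 ± 0.24 and 0.27 ± 0.11) and Cd68, Ly6c2, Apoe and C1qb below 0 (−0.26 ± 0.10, −0.45 ± 0.33, −0.66 ± 0.33 and −1.86 ± 1.09), none at an adjusted p under 0.05. The macrophage genes Mertk and C1qa had at most 13 and 11 reads in any library. Their part in the result was not tested.

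The 14 cDC2 markers summed to 247, 272 and 404 CPM in fl/fl against 543, 649 and 789 CPM in Δ/Δ libraries, without overlap and with Cd209a the most abundant. Of 14 tested, 2 were called higher by edgeR, Cd209a with 39.1, 39.1 and 69.2 CPM against 196, 268 and 239 CPM and Cd4 with 0.617, 0.779 and 1.74 CPM against 3.98, 6.77 and 4.67 CPM. Their log2 fold changes were 2.25 ± 0.25 and 2.30 ± 0.43 (edgeR adjusted p = 0.00556 and 0.0339). Cd4 was not called when fl/fl 1, fl/fl 2 or Δ/Δ 3 was left out (adjusted p = 0.145, 0.173 and 0.0712, with 7.85e-06 to 0.173 over all alternatives), and without Δ/Δ 1 the list had 4 called. Klf4, a transcription factor gene of cDC2, rose from 71.1, 78.8 and 98.2 CPM to 151, 133 and 203 CPM (edgeR adjusted p = 0.0321, but 0.158, 0.166, 0.0558 and 0.0502 when fl/fl 1, 2 or 3 or Δ/Δ 3 was left out, with 7.01e-07 to 0.166 over all alternatives), while Sirpa and Clec10a overlapped. Irf4, another transcription factor gene, had 27.4, 32.1 and 43.9 CPM against 55.6, 71.9 and 120.1 CPM, higher in every Δ/Δ library (log2 fold change 1.26 ± 0.30, edgeR adjusted p = 0.0699, with 7.8e-05 to 0.27 over all alternatives), and DESeq2 called it as the third of the list. Of the 14 markers, 6 were higher and 1 lower in Δ/Δ without overlap. The lower one, S100a4, had 2.43, 2.08 and 2.04 CPM against 1.38, 1.4 and 1.41 CPM (log2 fold change −0.64 ± 0.23, edgeR adjusted p = 0.19). What the transcripts of this list add to the Fc receptor values was not tested.

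The 12 pDC markers summed to 1179, 1247 and 1219 CPM in fl/fl against 1368, 1416 and 1607 CPM in Δ/Δ libraries, of which most were reads of Ptprc. Ccr9 was the 1 called, with 23.9, 20.8 and 24.0 CPM against 69.9, 60.4 and 52.0 CPM (log2 fold change 1.41 ± 0.12, edgeR adjusted p = 0.00333). Bst2, the second most abundant, was lower in every Δ/Δ library, with 109, 102 and 89.1 CPM against 79.0, 70.5 and 77.6 CPM (log2 fold change −0.41 ± 0.09, edgeR adjusted p = 0.0572). Siglech and Cd300c were higher in every Δ/Δ library, with 7.79, 10.8 and 8.61 CPM against 19.7, 16.5 and 37.5 CPM and 3.93, 4.97 and 11.2 CPM against 15.8, 29.8 and 48.3 CPM (log2 fold change 1.44 ± 0.32 and 2.23 ± 0.51, edgeR adjusted p = 0.0571 and 0.0634, with 2.59e-05 to 0.239 and 0.00586 to 0.25 over all alternatives). DESeq2 called 3 of the list, and without Δ/Δ 1 or Δ/Δ 2 edgeR called 3 or 2. Immediate early genes, which respond within minutes to handling as well as to stimuli, summed to 865, 789 and 1182 CPM in fl/fl against 1078, 2118 and 2532 CPM in Δ/Δ libraries, with Btg2 the most abundant. Of these 12 genes 0 were called by edgeR and limma-voom and 3 by DESeq2. By edgeR 8 of them reached an unadjusted p under 0.05, against 19.4% of all tested genes. Without Δ/Δ 1 edgeR called 8 of them, where it called 579 of all 13250 genes tested. Neither list was tested as a source of the Fc receptor values.

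Summed markers of each remaining cell type overlapped between the genotypes, while some single genes did not. The 13 neutrophil markers summed to 5.13, 19.1 and 22.5 CPM in fl/fl against 3.53, 11.5 and 11.9 CPM in Δ/Δ libraries, with S100a9 the most abundant and no read of Elane or Ly6g in any library. Csf3r was higher and Ngp and Camp were lower in Δ/Δ libraries without overlap, with 0 of this list called by edgeR and 2 by DESeq2. The 9 B cell markers summed to 367, 337 and 345 CPM against 278, 423 and 365 CPM, nearly all from Ighm, with no read of Vpreb3. The 10 T and NK cell markers summed to 109.8, 97.0 and 139 CPM against 63.6, 139 and 152 CPM, nearly all from Klrk1, with no read of Prf1. Of the 10 basophil and mast cell markers Kit was the most abundant, and the other 9 had 24, 60 and 48 reads in fl/fl and 33, 403 and 86 reads in Δ/Δ libraries, with no read of Tpsb2 or Cma1. Mcpt8, Cpa3 and Prss34 were higher in every Δ/Δ library than in any fl/fl library, and Δ/Δ 2 had the most reads, with 118 of Prss34 and 29 of Ms4a2, the IgE receptor beta chain. These 4 genes did not pass the filter of the edgeR fit, and with no filter edgeR called 1 gene of the list and DESeq2 3. What such transcripts add to the Fcer1g values was not tested.

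An antibody to CD16/32, the products of Fcgr3 and Fcgr2b, blocked Fc receptors before staining in the flow cytometry of the study. Whether the sorted cells were so treated is not stated, and the methods give 1 sort gate for both genotypes.

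Position is shared by 4 of the 6 genes, Fcgr2b, Fcgr4, Fcgr3 and Fcer1g, which lie in this order on chromosome 1. Fcgr2b and Fcgr3 are 74.6 kb apart, and Fcgr3 and Fcer1g 164.6 kb. Within 500 kb of Fcgr2b and Fcer1g and between them lie 71 annotated genes, of which 42 were tested. Of the 38 tested without the 4 receptors, 1 was called higher and 0 lower by edgeR, 10 reached an unadjusted and 3 an adjusted p under 0.05 (19.4% and 3.88% of all tested genes), and 4 were higher and 8 lower in Δ/Δ without overlap (13.7% and 12.3% of all). Their median log2 fold change was −0.02, against 0.00 over all tested genes.

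The gene called was Itln1, a lectin gene of a family whose number of copies is known to differ between mouse strains. It had 0 reads in fl/fl 1 to 3 and 25, 46 and 75 reads in Δ/Δ 1 to 3, or 0 CPM against 1.01, 2.15 and 3.30 CPM, at least 54.1-fold higher when 3 reads pooled over the fl/fl libraries, 0.0392 CPM, are set as the limit of a count of 0 (edgeR adjusted p = 0.0211). That limit covers counting error only. Its adjusted p was 0.0837, 0.0811 and 0.0533 without fl/fl 1, 2 and 3, and all alternatives spanned 7.33e-08 to 0.0837. Reads of Itln1 are all in libraries of 1 genotype on a mixed strain background, so genotype and strain at this stretch of chromosome 1 cannot be told apart for it, and the same holds for the receptor genes nearby.

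Tomm40l, a mitochondrial import gene 7.1 kb from Fcer1g, fell from 30.0, 29.7 and 31.6 CPM in fl/fl to 22.2, 18.6 and 20.8 CPM in Δ/Δ (log2 fold change −0.57 ± 0.10, edgeR adjusted p = 0.0234), the opposite direction from Fcer1g. Tomm40l did not pass when fl/fl 1, 2 or 3 or Δ/Δ 3 was left out (adjusted p = 0.114, 0.107, 0.0989 and 0.0554, with 0.00016 to 0.114 over all alternatives). With the receptor genes left out, the nearest tested genes on either side of Fcgr2b were Fcrla, 31.0 kb away, with 11.2, 8.75 and 13.8 CPM against 10.5, 22.5 and 26.6 CPM, and Cfap126, 137.4 kb away, with at most 1.45 CPM. Atf6, an endoplasmic reticulum stress sensor named after its values were seen, was the other neighbour lower at an adjusted p under 0.05 (log2 fold change −0.33 ± 0.06, edgeR adjusted p = 0.0279), with an adjusted p of 0.0542 when a replicate block was used, 0.157, 0.132 and 0.0968 without fl/fl 1, 2 and 3, and 0.000209 to 0.157 over all alternatives.

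**Figure D5:**
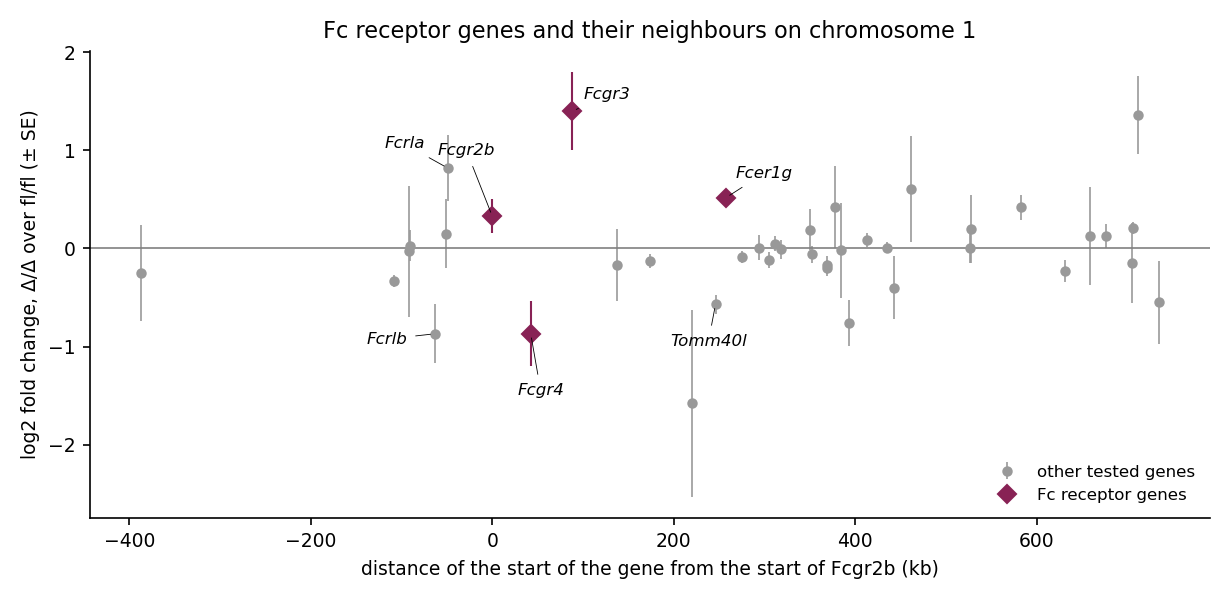
Log2 fold change (Δ/Δ over fl/fl, vertical axis) of the tested genes around the Fc receptor genes of chromosome 1, with bars for the SE, against the distance in kb of their start from that of Fcgr2b. Itln1, without fl/fl reads, is left out, and the receptors lie on both sides of 0 among neighbours whose median is −0.02.

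Genes with a course over the 6 libraries most like that of Fcgr2b were sought among 8550 genes with at least 10 CPM, by the root mean square difference of log2 CPM centred on each gene. The closest were Gm26740 with 0.0461, Kit with 0.0664, Tmc6 with 0.068, Prkce with 0.0689 and Gbp8 with 0.071. Kit, the stem cell factor receptor gene, had 288, 314 and 366 CPM in fl/fl against 349, 402 and 462 CPM in Δ/Δ libraries, highest in Δ/Δ 3 like Fcgr2b and with the same overlap. For Fcer1g, chosen after its values were seen, the closest were Acap1 with 0.0478, Cib1 with 0.05, N4bp1 with 0.0505, Neu1 with 0.0547 and Gtf2h2 with 0.0548. Acap1, an ARF GTPase-activating protein gene, had 123, 134 and 128 CPM in fl/fl against 183, 192 and 195 CPM in Δ/Δ libraries.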

How the data were processed

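RNA of 6 libraries of sorted cDC1 was analysed from the deposited read counts per gene. The authors aligned reads to mm10 with STAR 2.6.1a and Gencode vM19, and the deposited values are whole, not normalized counts. The strand column is not stated. The 4 tally lines of each file, 20.3 to 20.9% of its reads, were left out. Of 54532 gene identifiers 54495 were found in GENCODE M21 (GRCm38), used for names, positions and lengths.

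Counts were fitted with edgeR 4.0.16 in R 4.3.3 (TMM, filterByExpr at 10 reads and a total of 15, quasi-likelihood test on genotype alone), with Benjamini-Hochberg adjustment over 12894 genes. SE is the log2 fold change over the root of F. Depth ran from 21693217 to 26788296 reads on genes. Alternatives were DESeq2's size factors in edgeR, DESeq2 1.42.0, limma-voom (limma 3.58.1), no filter, a mean of at least 1 CPM, a replicate block, each library left out, adjusted p alone and, for ratios, the longest transcript or no length, with DESeq2 on genes with at least 1 read (no filter) added after the data were seen. The steps were tested on simulated data.

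Genes named are the 6 receptor genes, Jun, Junb and sort genes, Tyrobp, Syk, Inpp5d, Ptpn6 and B2m, in each list the 2 most abundant and called genes, called and nearest neighbours, and the 5 genes most like Fcgr2b; where other genes are named beyond marker checks and genes under an adjusted p of 0.05, the text says so, and some genes under these rules are not reported here. The receptor genes and the lists were chosen with earlier results of these data known. Sequences are from GENCODE M21 transcripts and RefSeq promoters, read with Python 3.11.15 and biopython 1.88.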

Additional observations from a re-analysis of the deposited data

How the results depend on the processing

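Log2 fold changes of the 6 receptor genes kept their direction under every alternative, and Fcer1g its adjusted p under 0.05, between 2.45e-09 and 0.0497. Fcgr3 passed the limits of a call with DESeq2's Wald test (log2 fold change 1.4, adjusted p = 0.0256) and, with 1 library left out, ran from 1.2 to 1.71, the latter without Δ/Δ 3; the cause was not tested. Of the 6 genes 1 was called with DESeq2, 1 at an adjusted p alone, and 0 to 1 with 1 library left out. At an adjusted p under 0.05 alone DESeq2 passed 3 (Fcer1g, Fcgr3 and Fcgrt), with or without the filter, and edgeR 2 without Δ/Δ 1 or Δ/Δ 3. DESeq2 with no filter, an alternative chosen after seeing the data, called 433 of all genes and 1 of the 6, Fcgr3 (adjusted p = 0.019), and its adjusted p of Junb was 0.0203 where the filtered fit had 0.000119. Of all genes, DESeq2 called 385, an adjusted p alone 500, and 74 to 579 were called with 1 library left out, where fewer libraries enter; all 240 were among the 385 and the 433. The other counts of all genes were 245 with DESeq2's size factors, 245 with limma-voom, 356 with no filter and 220 with the stricter filter, which leaves out Fcgr1 and Fcgr4, so these have no value there. Whether the replicate numbers pair the libraries is not settled. Correlations of the same number were 0.16, −0.24 and 0.32, and 3 libraries a genotype are too few to decide. With a replicate block 207 genes were called, 189 of them among the 240, and 0 of the 6. The Δ/Δ mean over the fl/fl mean of the activating over inhibitory level, 1.23, ran from 1.03 to 1.56 over the alternatives, within 1 SD of the Δ/Δ libraries. The level itself depends on length, with means of 1.96 and 2.48% in fl/fl and Δ/Δ for no division by length and 4.58 and 6.14% for the longest transcript, where the printed ones are 6.68 and 8.22%. A tally was made of the list counts and of some named single genes, with Cd22, Irf4, Siglech and Cd300c among those left out. In this tally 24 calls of a gene were lost and 4 were gained, all of Junb. Of the rest, 54 counts moved by more than 1.5 times and 321 values kept their side. Fcgr1, Fcgr3 and Fcgr4 had 12 to 129 reads per library, and 3 libraries a genotype limit all tests.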
